A study of Mus musculus with 6 samples.

Results

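The genes described here encode proteins that start, carry out or hold back apoptosis, necroptosis and pyroptosis in mouse mammary carcinoma cells. They were taken by symbol: the caspases, the BCL2 family with its BH3-only members, the baculoviral IAP repeat genes Birc2, Birc3 and Birc6, the RIP kinases, the gasdermins, and Apaf1, Xiap, Diablo, Fadd, Cflar, Mlkl and Pycard. This choice used no measured value and gave 47 of the 13912 genes in the deposited table. All 47 are annotated as protein-coding in GENCODE M21. Of 58 symbols written down by role, 47 had a row, and the other 11, among them Casp14, Bcl2l10 and most gasdermins, were not analysed here.

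RNA was sequenced from 4T1-Luc2-RFP cells, a mammary carcinoma line of BALB/c mice labelled with luciferase and with red fluorescent protein, in 2 groups of 3 libraries. The cultured libraries came from cells that had not been injected. The tumour libraries came from cells isolated by fluorescence-activated cell sorting from mammary gland tumours grown by the mouse intraductal (MIND) method, in which cells are placed inside the milk ducts. The titles of all 3 tumour libraries carry the word Right. Both groups carry the BALB/c strain label, whereas sorting is named for the tumour libraries alone. The sorting gate, the age of the mice and the number of animals behind a library are not given in the sources used here. Whether libraries within a group are from different animals or culture dishes is not stated either. The p-values therefore reflect the variation among these 6 libraries, and that variation could be purely technical.

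Apoptosis proceeds from death receptors, where FADD and caspase-8 assemble, or from mitochondria, where BAX and BAK open the outer membrane and APAF1 activates caspase-9. Pro-survival BCL2 proteins bind and restrain BAX and BAK, and BH3-only proteins neutralise the pro-survival proteins or activate BAX and BAK directly. When caspase-8 is blocked, RIPK1 and RIPK3 can activate MLKL and cause necroptosis, while in pyroptosis inflammatory caspases cleave gasdermin D into a membrane pore. The inflammatory branch is well known in macrophages and neutrophils.

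Levels are given in read counts normalised to library size (CPM), with the TMM factors of the deposited table, and each change is a difference of log2 CPM means, tumour minus cultured, with its standard error (SE). A gene counted as higher or lower when limma's Benjamini-Hochberg adjusted p over all 13912 genes was under 0.05. By that rule 48.2% of all genes passed in either direction. Of the 47 genes, 22 (46.8%) were higher in the tumour libraries, where 29.5% of all genes were. A further 8 (17.02%) were lower, where 18.8% of all genes were, and 17 did not pass. The levels of the groups did not overlap for 23 genes that were above and 9 that were below in tumour. Of all genes, 59.8% did not overlap, 34.6% above and 25.2% below. The median change of the 47 genes was 0.61, against 0.08 over all genes. Setting the genes at 0 cultured reads to their lower bound left it at 0.61. It could not move it, because each of those bounds lies above the median. The 22 higher and 8 lower calls became 19 and 12 under quantile normalization, and 30 and 4 with libraries scaled to epithelial genes. These scalings moved the median change of all genes to -0.32 and 0.58.

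The 47 genes were split by their level in culture. Of the 35 genes at or above 1 CPM in culture, 11 were higher (31.4%), 7 were lower (20%) and 17 did not pass, where 18.2% of all such genes were higher and 23.0% lower. Of the 12 genes under 1 CPM in culture, 11 were higher in tumour and 1, Hrk, was lower, and 75.3% of all such genes were higher. That count says little about these genes, because the smallest total of any gene in the table was 61 reads over the 6 libraries. A gene with fewer cultured reads than that is in the table only because of its tumour reads, which largely fixes its direction. This held for 10 of the 11 higher genes (Pmaip1, Ripk3, the 4 Bcl2a1 genes, Bcl2l14, Pycard, Casp1 and Casp4) and for 2216 of all genes, 85.1% of which were higher. Pmaip1, Ripk3, Bcl2a1c and Bcl2a1d had no cultured reads at all, as did 3.77% of all genes. By size, 18 genes rose at least 2-fold, 10 of them at least 16-fold, and 4 fell at least 2-fold. The 10 include Pmaip1, Ripk3, the 4 Bcl2a1 genes, Pycard, Casp1 and Casp4, which are in the table only because of their tumour reads. The 4 include Hrk and Bcl2l15, which are in it only because of their cultured reads. The shares of all genes at these sizes are not given here, so the counts by size say little.

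**Figure D1:**
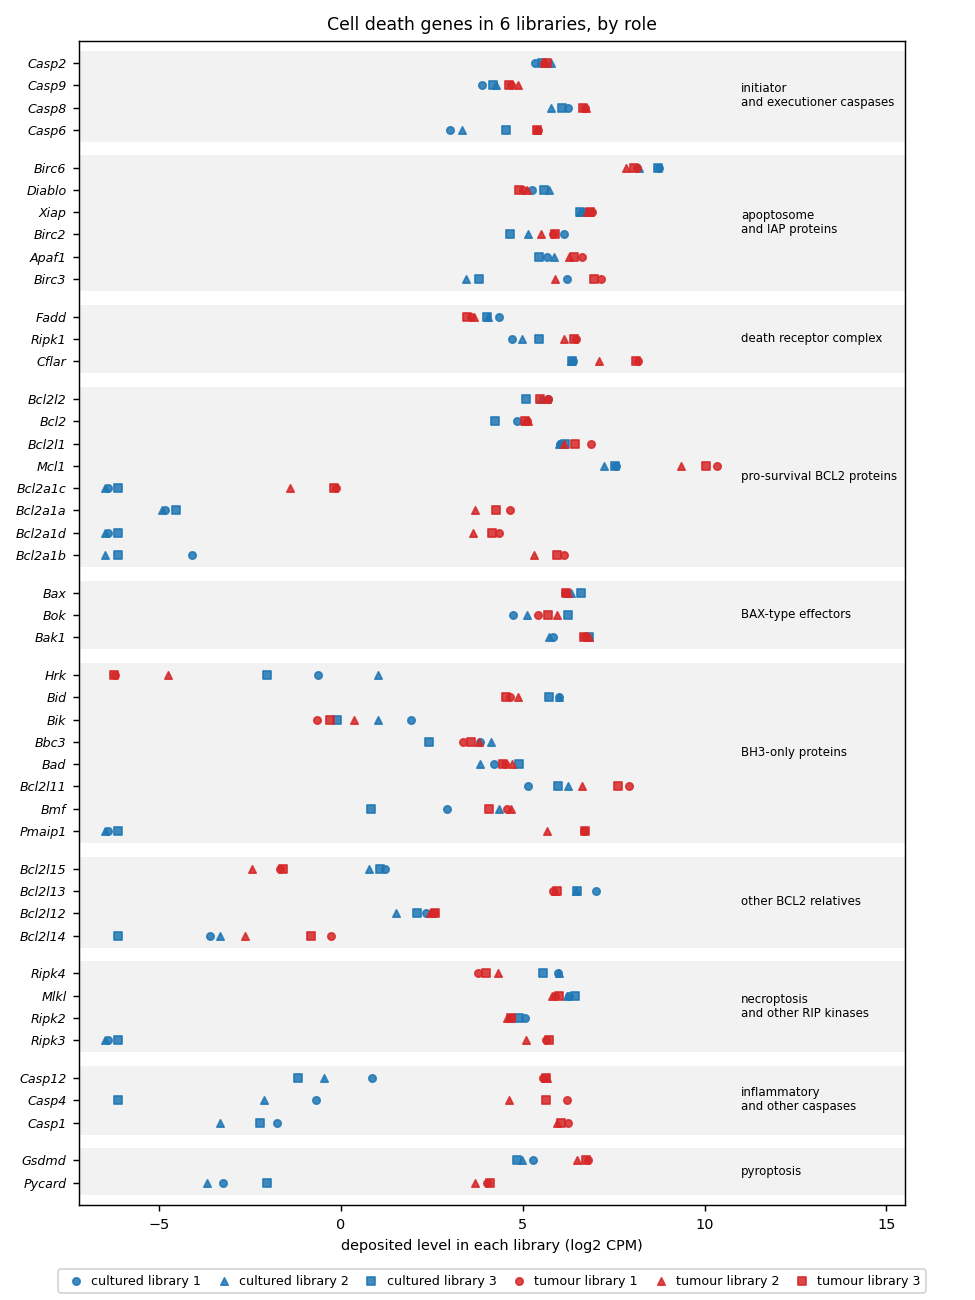
Level of the cell death genes reported here in each library, on the log2 CPM scale of the deposited table, grouped by role. Blue symbols are the 3 cultured libraries and red symbols the 3 tumour libraries, and circles, triangles and squares are libraries 1, 2 and 3 of a group. In 4 genes, Pmaip1, Ripk3, Bcl2a1c and Bcl2a1d, all cultured symbols stand at the value that 0 reads takes.

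Of the apoptotic caspases described here, Casp6, Casp8 and Casp9 were higher in tumour and Casp2 did not pass. Casp8, the initiator at death receptors, stood at 75.7, 54.4 and 68.0 CPM in cultured libraries 1, 2 and 3 and at 105, 106 and 102 CPM in tumour libraries 1, 2 and 3. Casp9, the initiator at the apoptosome, stood at 14.7, 19.1 and 18.1 CPM in culture and at 25.5, 29.0 and 24.8 CPM in tumour. For both genes every tumour library was above every cultured one. The changes were 0.67 (SE 0.16, limma adjusted p = 0.010) and 0.62 (SE 0.18, limma adjusted p = 0.026).

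Casp6, a caspase that acts downstream of the initiators, was at 8.02, 10.03 and 23.1 CPM in culture and at 43.0, 41.7 and 42.1 CPM in tumour. The groups did not overlap, and cultured library 3 was the highest cultured library. The change was 1.78 (SE 0.37, limma adjusted p = 0.0054). Casp2, an initiator linked to DNA damage, had a change of 0.06 (95% interval -0.31 to 0.44), which took the other sign, at -0.16, with each library centred on its median, and also under quantile normalization, with plain library totals and without cultured library 1. The call for Casp8 was lost under that centring (limma adjusted p = 0.0501). The call for Casp9 was lost under that centring, quantile normalization and plain library totals, and without cultured library 1 or any 1 tumour library (limma adjusted p from 0.058 to 0.174).

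In the complex that forms under death receptors, the adaptor Fadd was lower and the regulators Cflar and Ripk1 were higher. Cflar encodes c-FLIP, which resembles caspase-8 and limits its activation. It was at 84.1, 79.8 and 81.4 CPM in culture and at 288, 136 and 278 CPM in tumour. Its cultured libraries lay close together, and tumour library 2 was the lowest of the tumour libraries but still above them. The change was 1.44 (SE 0.29, limma adjusted p = 0.0043).

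Ripk1, the kinase that can direct the complex to survival, apoptosis or necroptosis, was at 25.9, 31.6 and 43.5 CPM in culture and at 88.8, 70.2 and 84.7 CPM in tumour. The groups did not overlap, and the change was 1.30 (SE 0.22, limma adjusted p = 0.0019). Fadd, which links the receptors to caspase-8, was at 20.4, 16.5 and 16.1 CPM in culture and at 11.9, 12.5 and 11.1 CPM in tumour. All 3 tumour libraries were below the cultured ones, with a change of -0.57 (SE 0.19, limma adjusted p = 0.041). The call for Fadd was lost without cultured library 1 or any 1 tumour library (limma adjusted p from 0.083 to 0.160), and with libraries scaled to epithelial genes, where the change was -0.077. Cflar and Casp8 are neighbours on the same strand, between them spanning chr1:58711508-58847503 of GRCm38.

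Of the 8 pro-survival BCL2 genes in the table, 5 were higher in tumour, none was lower and 3 did not pass. The 5 were Mcl1 and the 4 Bcl2a1 genes, where 29.5% of all genes were higher and 18.8% lower. The 4 Bcl2a1 genes are close copies that are in the table only because of their tumour reads, so the count of 5 says little. The Bcl2a1 genes encode copies of A1, a short-lived pro-survival protein best known in blood cells, and all 4 lie on chromosome 9. In each, a stretch upstream of the RefSeq start holds matches to motifs known from blood cell enhancers. The stretches are shown because each of the 4 genes had 0 to 3 reads over the cultured libraries and was higher in tumour. They are RefSeq sequences of build GRCm38.p6, written 5′ to 3′ on the strand of the gene, at chr9:88956780-88956836 (+) for Bcl2a1a, chr9:89199089-89199145 (+) for Bcl2a1b, chr9:88731934-88731984 (-) for Bcl2a1d and chr9:114329885-114329941 (+) for Bcl2a1c. Capitals mark the AP-1 motif TGANTCA and the core GAGGAAG bound by PU.1, and no base lies in a GENCODE exon.
Bcl2a1a: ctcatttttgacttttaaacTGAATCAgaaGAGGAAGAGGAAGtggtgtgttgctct
Bcl2a1b: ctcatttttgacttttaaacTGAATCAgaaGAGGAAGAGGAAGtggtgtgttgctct
Bcl2a1d: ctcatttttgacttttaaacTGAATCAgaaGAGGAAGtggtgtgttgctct
Bcl2a1c: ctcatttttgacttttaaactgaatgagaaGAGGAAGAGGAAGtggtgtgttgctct
The copies of Bcl2a1a and Bcl2a1b read the same over these 57 bases, and the stretch of Bcl2a1d has 51 bases and 1 copy of GAGGAAG where the others have 2, which overlap. The letters TGANTCA are not in the 300-base window of Bcl2a1c. Of all 32851 RefSeq promoter windows of that length, 7.81% hold TGANTCA and 13.6% hold GAGGAAG on either strand.

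Bcl2a1b had 2 reads over the cultured libraries and 69.8, 39.4 and 61.1 CPM in tumour libraries 1, 2 and 3, a ratio of 3452 with a 95% counting interval of 956 to 28506. Bcl2a1a had 3 cultured reads and 25.03, 12.8 and 19.1 CPM in tumour, a ratio of 768 with an interval of 263 to 3726. Bcl2a1d had no cultured reads and 20.2, 12.5 and 17.8 CPM in tumour, at least 682-fold higher against a floor of 3 reads over the cultured group. These 3 genes were near or at 0 in culture and lowest in tumour library 2 among the tumour libraries. Bcl2a1c, also without cultured reads, reached only 0.895, 0.369 and 0.870 CPM, at least 28.7-fold higher, and its call was lost under quantile normalization (limma adjusted p = 0.19). The limma adjusted p was 4.0e-05 for Bcl2a1c and at most 4.9e-06 for the other copies.

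Reads of these copies may have been assigned to one another or left out. Bcl2a1b also shares 401 of its 817 exon bases (49.1%) with the gene model Gm29094 on the same strand, where reads could have been ambiguous. Their transcripts are 98.2% to 99.1% identical between Bcl2a1a, Bcl2a1b and Bcl2a1d, with 7 to 15 differing bases over 817 to 819 aligned bases. Over 442 aligned bases Bcl2a1c is 95.5% to 96.6% identical to the others. The sum over the 4 copies, which does not depend on how reads were split among them but misses any left out, was 0.040 ± 0.026 CPM in culture and 93.3 ± 25.9 CPM in tumour (SD, n = 3).

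Mcl1 encodes a short-lived pro-survival protein that binds BAK and BIM. It was at 189, 151 and 186 CPM in culture and at 1305, 648 and 1047 CPM in tumour. Every tumour library was above every cultured one, by a mean change of 2.46 (SE 0.27, limma adjusted p = 0.00017), a 5.501-fold difference. The founding member Bcl2 was at 28.9, 33.5 and 18.98 CPM in culture and at 34.7, 35.1 and 33.3 CPM in tumour, a change of 0.38 (95% interval -0.15 to 0.91, limma adjusted p = 0.21).

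Bcl2l1, which encodes BCL-XL, was at 65.4, 63.7 and 72.2 CPM in culture and at 117, 70.7 and 87.1 CPM in tumour, with overlap from tumour library 2. Its change was 0.42 (95% interval -0.05 to 0.89, limma adjusted p = 0.12). Bcl2l2, which encodes BCL-W, had a change of 0.19 (95% interval -0.25 to 0.63), which took the other sign, at -0.036, with each library centred on its median. With libraries scaled to epithelial genes, Bcl2, Bcl2l1 and Bcl2l2 passed as higher. The summed level of Mcl1, Bcl2, Bcl2l1 and Bcl2l2 was 313 ± 20.9 CPM in culture and 1175 ± 353 CPM in tumour (SD, n = 3).

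None of the 3 BAX-type effectors passed the test, where 48.2% of all genes passed in either direction. Bax was at 72.1, 79.6 and 97.6 CPM in culture and at 73.0, 75.4 and 72.8 CPM in tumour, a change of -0.16 (95% interval -0.52 to 0.20, limma adjusted p = 0.43) that took the other sign, at 0.33, with libraries scaled to epithelial genes. Bak1 was at 56.4, 52.9 and 113 CPM in culture and at 105, 113 and 102 CPM in tumour, a change of 0.61 (95% interval -0.05 to 1.28, limma adjusted p = 0.11). For Bax and Bak1 cultured library 3 was the highest cultured library, and for Bak1 it lay among the tumour libraries. Without it the change of Bak1 was 0.96 (limma adjusted p = 0.00053). Bok, a less studied relative, had a change of 0.31 (95% interval -0.56 to 1.18). Its change was 0.76 (limma adjusted p = 0.018) without cultured library 3 and -0.00086 without cultured library 1.

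Of the 8 BH3-only genes 2 were higher, 2 were lower and 4 did not pass, where 29.5% of all genes were higher and 18.8% lower. The counts are near those shares and say little about the group. Pmaip1 encodes NOXA, which binds MCL1 and A1. It had no reads in any cultured library and stood at 102, 50.9 and 106 CPM in tumour, at least 3489-fold higher (limma adjusted p = 7.1e-07). Pmaip1 is in the table only because of its tumour reads, which largely fixes its direction. Bcl2l11 encodes BIM, which binds all pro-survival members. It was at 35.4, 76.1 and 62.1 CPM in culture and at 241, 99.7 and 197 CPM in tumour, a change of 1.61 (SE 0.39, limma adjusted p = 0.011). Tumour library 2 was again the lowest tumour library for both genes.

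Bid, which caspase-8 cleaves to link death receptors to mitochondria, was at 63.8, 64.2 and 53.2 CPM in culture and at 25.2, 29.0 and 23.3 CPM in tumour. The groups did not overlap, and Bid fell by 1.22 on the log2 scale (SE 0.16, limma adjusted p = 0.00057). Bid and Bcl2l13 lie on opposite strands of chromosome 6 and share 628 exon bases, 17.7% of the exon bases of Bid, and whether the counting used strand is not given in the sources used here. In the same way Bak1 shares 25.5% of its exon bases with Ggnbp1 and Bad 20.5% with Gpr137. Hrk, a BH3-only gene best known in neurons, had 27, 91 and 8 reads in culture and 0, 1 and 0 reads in tumour. Its cultured level was 118 times its tumour level, with a 95% counting interval of 21.3 to 4680 (limma adjusted p = 0.0014), and its highest cultured level was 2.01 CPM. Hrk is in the table only because of its cultured reads, which largely fixes its direction.

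The 4 BH3-only genes that did not pass were Bad, Bbc3, Bmf and Bik. Bad, which growth factor kinases hold inactive, was at 18.4, 14.2 and 29.7 CPM in culture and at 22.9, 26.1 and 22.1 CPM in tumour, a change of 0.26 (95% interval -0.40 to 0.91) that was -0.027 under quantile normalization. Bbc3, which encodes the p53 target PUMA, was at 14.3, 17.4 and 5.31 CPM in culture and at 10.3, 13.9 and 11.9 CPM in tumour. Its change of 0.12 (95% interval -0.89 to 1.14) took the other sign under 3 scalings, with library quality weights and without cultured library 3. The values for Bmf and Bik were 1.74 (95% interval -0.08 to 3.55) and -1.15 (95% interval -2.44 to 0.15), with cultured levels that ran from 1.75 to 20.5 CPM for Bmf and from 0.919 to 3.80 CPM for Bik. Under quantile normalization Bik was at -4.22 (limma adjusted p = 0.00080). Without cultured library 3, Bad reached 0.55 (limma adjusted p = 0.037) and Bik -1.67 (limma adjusted p = 0.016), and without cultured library 2, Bmf reached 2.56 (limma adjusted p = 0.014).

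Of the other BCL2 relatives, Bcl2l14 was higher, Bcl2l13 and Bcl2l15 were lower and Bcl2l12 did not pass. Bcl2l13, a mitochondrial member linked to mitophagy, was at 130, 88.1 and 90.03 CPM in culture and at 57.0, 59.2 and 61.1 CPM in tumour, a fall that passed (change -0.77, SE 0.18, limma adjusted p = 0.0097). Bcl2l15, known from the gut, was at 2.32, 1.70 and 2.10 CPM in culture and at 0.298, 0.172 and 0.317 CPM in tumour, a change of -2.93 (SE 0.38, limma adjusted p = 0.00044). Both were lower in every tumour library. Bcl2l15, with 30 reads over the tumour libraries, is in the table only because of its cultured reads, which largely fixes its direction. The call for Bcl2l13 was lost with libraries scaled to epithelial genes (change -0.28, limma adjusted p = 0.37).

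Bcl2l14, which encodes BCL-G, had 7 reads over the cultured libraries and 0.814, 0.148 and 0.554 CPM in tumour. Its change was 3.11 (SE 0.90, limma adjusted p = 0.024), which was -1.27 under quantile normalization and did not pass without tumour library 1 (limma adjusted p = 0.081) or tumour library 3 (limma adjusted p = 0.076). Bcl2l12 was at 5.07, 2.83 and 4.22 CPM in culture and at 5.91, 5.49 and 5.99 CPM in tumour. These groups did not overlap, but the change of 0.56 did not pass (limma adjusted p = 0.15), and under quantile normalization it was -0.82. Bcl2l12 shares 28.9% of its exon bases with an antisense gene.

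Among the apoptosome and IAP genes, Apaf1 and Birc3 were higher, Diablo was lower and Birc2, Birc6 and Xiap did not pass. Apaf1, the scaffold that activates caspase-9, was at 50.9, 58.2 and 43.9 CPM in culture and at 99.6, 77.5 and 85.4 CPM in tumour. All tumour libraries were above the cultured ones, with a change of 0.78 (SE 0.17, limma adjusted p = 0.0068). Birc3, which encodes cIAP2, a ubiquitin ligase of the TNF receptor complex, was at 75.0, 10.9 and 13.95 CPM in culture and at 143, 59.2 and 124 CPM in tumour. Its groups overlapped, since cultured library 1 was above tumour library 2. The change was 2.18 (SE 0.71, limma adjusted p = 0.037), and the call was lost without cultured library 2, cultured library 3, tumour library 1 or tumour library 3 (limma adjusted p from 0.085 to 0.110), and without the variance trend (limma adjusted p = 0.060).

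Diablo encodes SMAC, which leaves mitochondria and removes the block by IAP proteins. It was at 38.4, 52.5 and 48.0 CPM in culture and at 32.4, 34.7 and 29.9 CPM in tumour. The groups did not overlap, and the change was -0.51 (SE 0.17, limma adjusted p = 0.043). That call was lost with libraries scaled to epithelial genes, where the change was -0.014, and without cultured library 2, cultured library 3 or any 1 tumour library (limma adjusted p from 0.053 to 0.161), and without the variance trend (limma adjusted p = 0.064). Diablo shares 21.5% of its exon bases with B3gnt4 on the other strand.

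Birc6, which encodes a very large ubiquitin ligase, was at 432, 291 and 420 CPM in culture and at 284, 229 and 265 CPM in tumour. Its groups did not overlap, and its change of -0.54 (limma adjusted p = 0.056) was -0.72 (limma adjusted p = 0.012) without cultured library 2. It also passed as lower with median centring, quantile normalization, plain library totals or quality weights (limma adjusted p from 0.013 to 0.023). Xiap, a direct inhibitor of caspase-9, was at 105, 95.7 and 96.0 CPM in culture and at 119, 108 and 115 CPM in tumour. The tumour libraries were above the cultured ones, but the change of 0.21 (95% interval -0.10 to 0.51, limma adjusted p = 0.23) took the other sign, at -0.019, with each library centred on its median. Birc2, next to Birc3 on chr9:7818227-7873186, had a change of 0.44 (95% interval -0.39 to 1.27), which was 0.85 (limma adjusted p = 0.023) without cultured library 1.

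Ripk3, at chr14:55784995-55788865 on the minus strand, encodes the kinase that phosphorylates MLKL. It had no reads in the cultured libraries and 49.7, 33.8 and 53.0 CPM in tumour, at least 1849-fold higher (limma adjusted p = 6.4e-07). Mlkl, which encodes the pseudokinase that breaks the plasma membrane, was at 76.97, 74.5 and 86.4 CPM in culture and at 59.2, 55.7 and 63.4 CPM in tumour. All tumour libraries were below the cultured ones, and the change was -0.41 (SE 0.14, limma adjusted p = 0.041). The change of Mlkl was 0.081 with libraries scaled to epithelial genes, and its call was lost in 7 further settings of 15: without cultured library 1 or any 1 tumour library (limma adjusted p from 0.062 to 0.137), with a filter on the overall mean (0.05003), without the variance trend (0.074) and with quality weights (0.054).

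Ripk4, a kinase of keratinocyte differentiation, was at 62.7, 63.9 and 46.97 CPM in culture and at 13.6, 19.8 and 15.9 CPM in tumour. It fell by 1.82 on the log2 scale (SE 0.21, limma adjusted p = 0.00025), with no overlap. Ripk2, which carries signals from the NOD receptors, was at 33.6, 24.9 and 29.6 CPM in culture and at 25.3, 23.9 and 25.4 CPM in tumour. The change of Ripk2 was -0.23 (95% interval -0.63 to 0.17, limma adjusted p = 0.31), which took the other sign, at 0.27, with libraries scaled to epithelial genes.

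**Figure D2:**
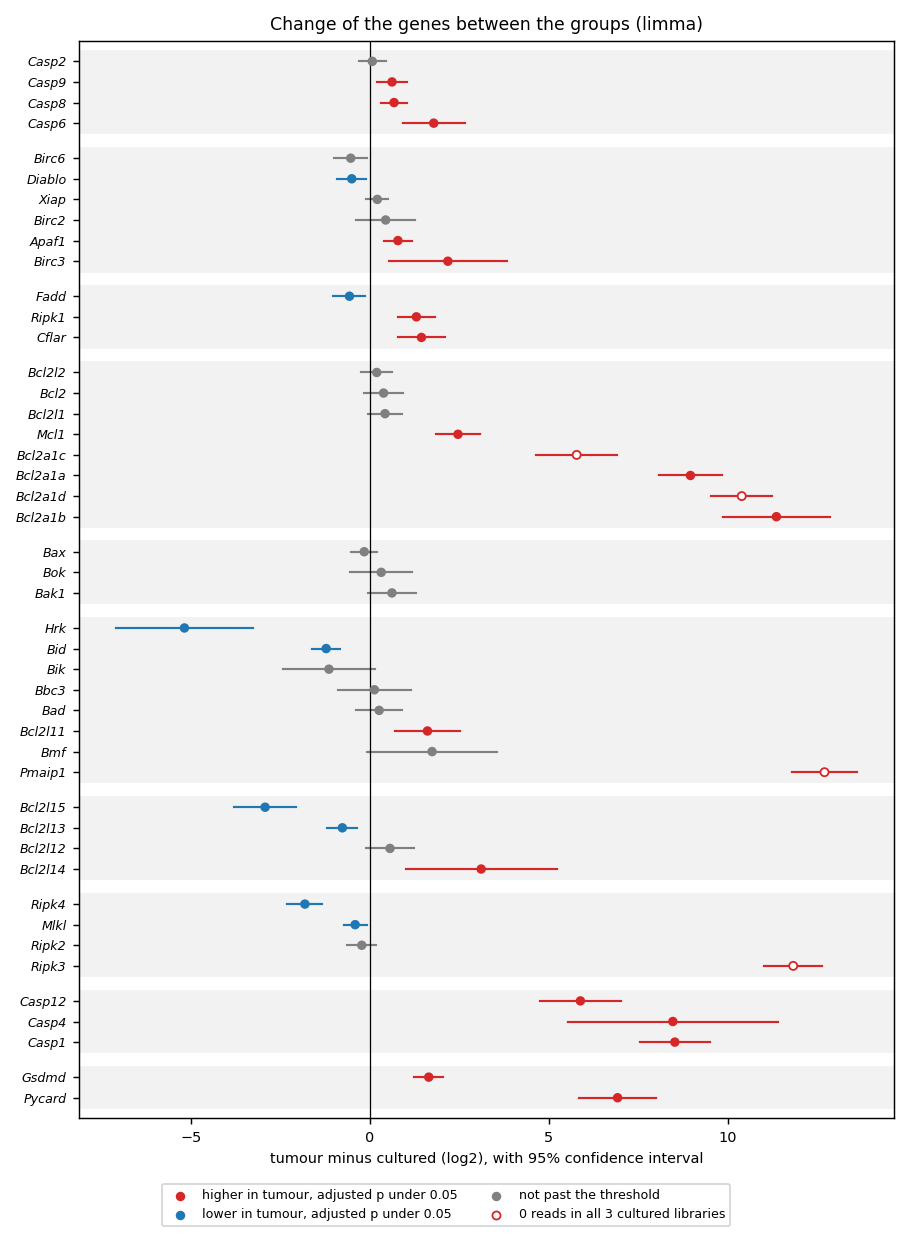
Change of the same genes (tumour minus cultured, log2 CPM) with its 95% interval from limma. Shaded bands are the role groups, in the order of the plot of levels by library. Colours show whether the gene was higher, lower or not past an adjusted p of 0.05, and open symbols mark genes with 0 cultured reads, whose plotted value depends on the 0.5 reads added to each count and is no measure of fold. Pmaip1, Ripk3, Pycard, the 3 inflammatory caspases and the 4 Bcl2a1 genes stand far to the right, and the intervals of the BAX-type effectors include 0.

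The 3 inflammatory and related caspases in the table were all higher in tumour, where 29.5% of all genes were. Casp1 and Casp4 are in the table only because of their tumour reads, which largely fixes their direction. Casp1, Casp4 and Casp12 lie side by side on the plus strand of chr9:5298517-5373032, with gaps of 1562 and 8646 bases. Casp1 encodes the protease that matures interleukin-1 beta, Casp4 encodes the mouse sensor of lipopolysaccharide also called caspase-11, and Casp12 encodes a relative linked to stress of the endoplasmic reticulum. Stretches upstream of Casp4 and Casp12 are shown because their windows hold repeated matches. They are RefSeq sequences of GRCm38.p6 on the plus strand, at chr9:5308739-5308826 and chr9:5345346-5345425. Capitals mark the NF-kB motif (GGG and TTCC with 3 bases of any kind between them, on either strand) in Casp4 and the STAT motif TTCNNNGAA in Casp12.
Casp4: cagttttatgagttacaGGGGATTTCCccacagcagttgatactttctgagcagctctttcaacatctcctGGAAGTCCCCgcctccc
Casp12: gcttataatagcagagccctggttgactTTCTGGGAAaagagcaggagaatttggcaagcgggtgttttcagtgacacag
The window of Casp4 holds 3 matches to the NF-kB motif, 2 of them shown, and that of Casp12 holds 2 matches to TTCNNNGAA, 1 of them shown. Of all windows, 5.56% hold the NF-kB letters and 8.30% hold the STAT letters. The window of Casp1 holds neither.

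Casp1 was at 0.282, 0.0883 and 0.201 CPM in culture and at 75.3, 61.6 and 66.8 CPM in tumour. Casp4 was at 0.610 and 0.221 CPM in cultured libraries 1 and 2 and had no reads in cultured library 3, against 74.8, 24.4 and 49.8 CPM in tumour. Casp12 was at 1.81, 0.707 and 0.431 CPM in culture and at 46.8, 51.1 and 49.6 CPM in tumour. In tumour, Casp12 differed little between libraries, while Casp4 was lowest in library 2. The changes were 8.52 (SE 0.42, limma adjusted p = 2.7e-06) for Casp1, 8.46 (SE 1.26, limma adjusted p = 0.00099) for Casp4 and 5.88 (SE 0.48, limma adjusted p = 3.5e-05) for Casp12. Their summed level was 1.45 ± 1.10 CPM in culture and 167 ± 29.8 CPM in tumour (SD, n = 3).

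Both genes of the pyroptosis group in the table, Gsdmd and Pycard, were higher in tumour, where 29.5% of all genes were. Pycard is in the table only because of its tumour reads, which largely fixes its direction. Gsdmd, which encodes the pore-forming substrate of these caspases, was at 39.0, 31.7 and 28.4 CPM in culture and at 112, 90.4 and 106 CPM in tumour. Pycard, which encodes the adaptor ASC that joins sensors to caspase-1, was at 0.0938, 0.0663 and 0.230 CPM in culture and at 16.1, 12.7 and 17.2 CPM in tumour. Gsdmd was thus well measured in culture, whereas Pycard rested there on 15 reads over the 3 libraries. The changes were 1.64 (SE 0.17, limma adjusted p = 0.00015) and 6.92 (SE 0.47, limma adjusted p = 1.1e-05).

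**Figure D3:**
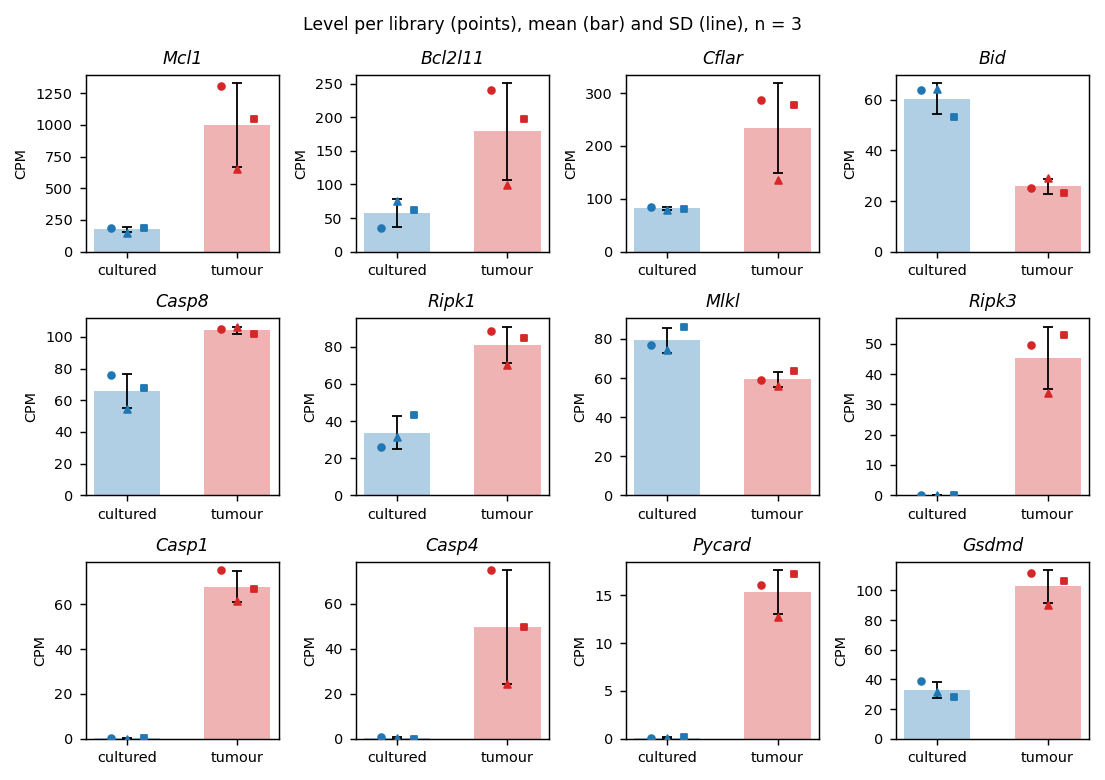
Level in CPM, on a linear axis from 0, of 12 of the genes in each library, with cultured libraries in blue and tumour libraries in red. Circles, triangles and squares are libraries 1, 2 and 3 of a group, bars are means and lines are SD (n = 3). Mcl1, Cflar and Ripk1 rise from a measurable cultured level, Bid and Mlkl lie lower in tumour without overlap, and Ripk3, Casp1, Casp4 and Pycard stand at or near 0 in culture.

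Per kilobase of exon (RPKM, from the union of GENCODE exons), the order of the genes changed between the groups. In culture Bax was at 52.7 ± 8.32 and Mcl1 at 51.3 ± 6.16 RPKM (SD, n = 3), within each other's spread. In tumour Mcl1 led at 293 ± 96.7 RPKM, and Bcl2a1b was at 69.5 ± 19.2 RPKM. Bax at 46.8 ± 0.914, Casp1 at 45.4 ± 4.60, Bak1 at 44.3 ± 2.40 and Gsdmd at 43.2 ± 4.62 RPKM came next and differed by less than the spread of Casp1 and Gsdmd. Of the BH3-only genes, Pmaip1 was at 31.6 ± 11.2 RPKM in tumour and Bcl2l11 at 22.3 ± 8.97 RPKM, and these levels lay within their spread.

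Markers of other cell types rose with the genes that were near 0 in culture. The summed level of 17 macrophage and monocyte markers ran from 28.6 to 39.1 CPM in culture and from 7063 to 10512 CPM in tumour, with all 17 higher and Ms4a7 at 0 reads in culture. For 11 neutrophil markers of 13 listed the sums were 85.6 to 101 and 1370 to 4343 CPM, with all 11 higher and 3 at 0 reads in culture. For 12 fibroblast markers they were 23.7 to 51.7 and 6828 to 8798 CPM, with all 12 higher. Of 10 dendritic cell and MHC class II genes 9 were higher (8.15 to 21.1 and 5560 to 7882 CPM), and so were 9 of 10 endothelial markers (10.8 to 15.8 and 116 to 170 CPM). Only 4 of 14 lymphocyte markers listed had a row, and all 4 were higher (0 to 0.0221 and 5.61 to 7.86 CPM). These 4 had almost no cultured reads, which largely fixes their direction. The other lists were also low in culture. On the log2 CPM scale their median cultured levels were -3.06 (macrophage), -5.29 (neutrophil), -3.10 (fibroblast), -2.65 (dendritic cell and MHC class II) and -4.51 (endothelial). Of all genes under 1 CPM in culture 75.3% were higher, so the counts of higher markers in these lists say little. The 19 epithelial and carcinoma markers in the table summed to 3405 to 4130 CPM in culture and 3058 to 3540 CPM in tumour, with none higher and 9 lower. The part of these other cells in the changes of Ripk3, Pmaip1, the Bcl2a1 genes, the inflammatory caspases, Pycard and the other higher genes was not tested. In bulk RNA, fewer cells of a type and less RNA per cell cannot be told apart.

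**Figure D4:**
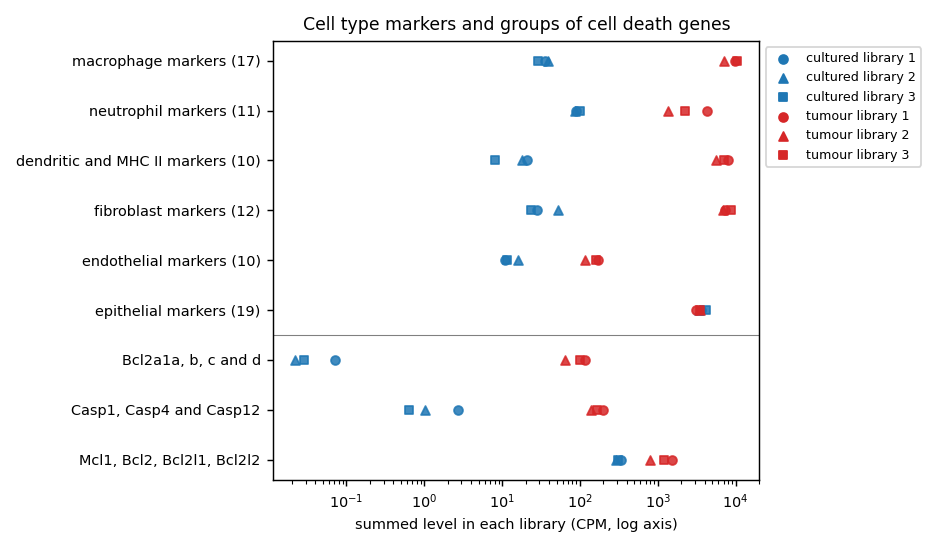
Summed level in each library (CPM, log axis) of 6 lists of cell type markers, above the line, and of 3 groups of cell death genes, below it. Blue symbols are cultured and red symbols tumour libraries, with circles, triangles and squares for libraries 1, 2 and 3. The epithelial sum stays between 3058 and 4130 CPM in all 6 libraries, while the Bcl2a1 sum goes from 0.040 to 93.3 CPM on average.

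The tumour libraries differed among themselves in the genes that were higher. Tumour library 2 was the lowest tumour library for 18 of the 22 higher genes (81.8%), where it was lowest for 66.3% of all genes higher in tumour. It was lowest for 8 of the other 25 genes (32.0%). Its median difference from the mean of the other tumour libraries was -0.60 over the 22 genes and -0.29 over all genes higher in tumour, on the log2 CPM scale. The neutrophil markers were lowest in the same library for 10 of 11 genes, with a median difference of -2.98, and the macrophage markers for 15 of 17, with -0.34. It was also lowest for 9 of 10 endothelial markers (-0.51), 9 of 10 dendritic cell and MHC class II genes (-0.50) and 8 of 12 fibroblast markers (-0.35). For lymphocyte markers it was lowest for 1 of 4 (-0.20), and for epithelial markers for 5 of 19 (0.13). The part of these cells in the difference was not tested.

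Promoter windows were compared by their content of CG pairs, which is high in promoters within CpG islands. A RefSeq window of 300 bases around the start was available for 40 of the 47 genes. Where a gene had several windows, the one with the most CG pairs was used. The 10 higher genes under 1 CPM in culture with a window had a median of 4 CG pairs (range 3 to 10). They include the 4 Bcl2a1 copies, which are similar there and were each counted. The 29 genes at or above 1 CPM had a median of 22 (range 0 to 46). Hrk, under 1 CPM in culture and lower in tumour, had 29, and Bcl2l15, also lower, had 0. Over all genes of the table with a window, the median was 9 for 1958 genes with a cultured mean under 0 on the log2 CPM scale and 23 for the 8552 others, so low genes had fewer CG pairs in general. No test was run on this difference.

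**Figure D5:**
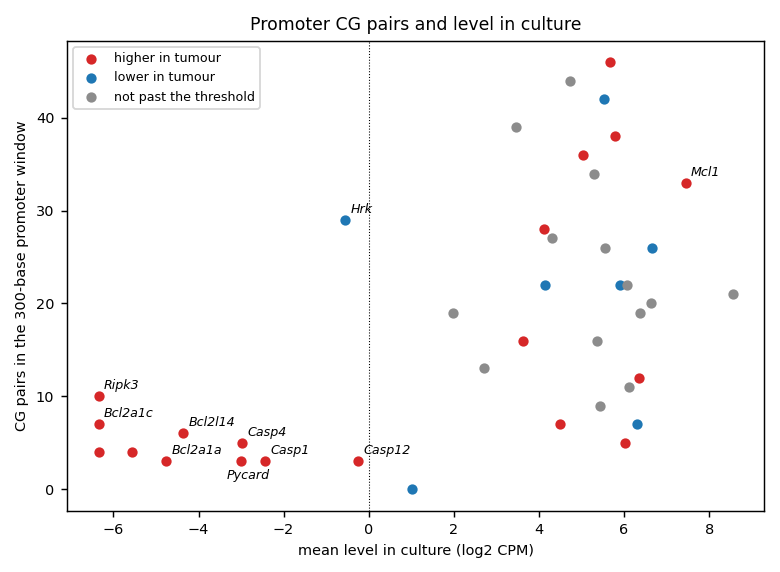
Number of CG pairs in the 300-base promoter window (vertical axis) against the mean cultured level on the log2 CPM scale (horizontal axis) for the 40 genes with a RefSeq window. For a gene with several windows the highest number is shown. Red points were higher in tumour, blue points lower and grey points not past the threshold, and the dotted line marks 0 on the log2 scale (1 CPM). Red points left of the line have 3 to 10 CG pairs, and Hrk stands apart there with 29.

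Of the 6 motifs searched in 54 windows of the 40 genes, on both strands, 4 are spelled above. The interferon motif (TTTC and TTTC with 2 bases of any kind between them) was found in 2 of the 54 windows (3.70%), those of Cflar and Ripk1, against 3.44% of all windows and 3.14% of the windows of genes in the table. The CRE core TGACGT was found in 5 windows (9.26%), against 7.51% and 10.98%. Matches to GAGGAAG were found in 13 windows (24.1%), against 13.6% and 13.95%. The 4 Bcl2a1 copies, which are similar there, were each counted. The others were Bcl2l14, Casp6, Pycard and Ripk1, which were higher, and Bad, Bak1, Bcl2, Bcl2l2 and Xiap, which did not pass. Casp1 had none. TGANTCA was found in 3 windows (5.56%), against 7.81% and 5.61%. The STAT letters were found in 2 windows, of Casp12 and Ripk1, against 8.30% and 7.05%, and the NF-kB letters in 5 windows (9.26%), of Bbc3, Bcl2l1, Casp4 and Mcl1, against 5.56% and 6.26%. Both windows of Casp4 were counted, although they overlap. A match is only a description of the letters.

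Other genes of these pathways were taken from 5 lists of 64 genes, 61 of which were in the table. Of these, 26 were higher and 9 lower, where 29.5% of all genes were higher and 18.8% lower. Their median change was 0.43, and the counts were 34 and 2 with libraries scaled to epithelial genes. The 9 lower calls were 4 without tumour library 1 and 3 without tumour library 3. The inflammasome list, with the sensors that recruit Pycard and the products of Casp1, had 15 of 16 genes higher, none lower and a median change of 6.79. Its median cultured level was -1.80 on the log2 CPM scale, and 75.3% of all genes under 1 CPM in culture were higher. The count of 15 therefore says little about these genes. Nlrp3, a sensor of membrane damage, went from 0.446 ± 0.247 to 602 ± 342 CPM (SD, n = 3) and Il1b, the cytokine matured by caspase-1, from 1.76 ± 1.44 to 2096 ± 1125 CPM. Mefv, which encodes pyrin, rested on 4 cultured reads and stood at 80.8 ± 47.4 CPM in tumour. The exception was Nek7, a partner of NLRP3, with a change of -0.16 that did not pass.

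Of 9 death ligand, receptor and adaptor genes, 4 were higher and 2 lower, where 29.5% of all genes were higher and 18.8% lower. Tnf went from 0.499 ± 0.625 to 242 ± 124 CPM, Tnfsf10, which encodes TRAIL, from 0.101 ± 0.0624 to 11.1 ± 1.22 CPM and Tnfrsf1b from 61.0 ± 23.2 to 429 ± 174 CPM (SD, n = 3). The ligands were thus near 0 in culture, as the inflammasome sensors were. The TRAIL receptor gene Tnfrsf10b was lower, with a change of -0.85, and so was the TNF receptor adaptor Traf2, with -1.06.

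Of 14 genes of mitochondrial release and execution, none was higher and 3 were lower, with a median change of -0.17. The shares of all genes were 29.5% higher and 18.8% lower. Birc5, which encodes the mitotic protein survivin, went from 169 ± 74.7 to 72.6 ± 11.02 CPM (change -1.13, limma adjusted p = 0.020). Sptan1, a spectrin that caspases cleave, and the channel gene Vdac3 had changes of -0.61 and -0.50. Cytochrome c (Cycs) had a change of -0.32 and Parp1 of -0.28, and neither passed.

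Of 14 ubiquitin and kinase checkpoints of TNF signalling, 3 were higher and 2 lower. Both counts lie below the shares of all genes, 29.5% higher and 18.8% lower. Mapkapk2, a kinase that phosphorylates RIPK1, rose by 1.51 (SE 0.20, limma adjusted p = 0.00048). Rnf31, the catalytic subunit of the linear ubiquitin ligase, rose by 0.89 (SE 0.20, limma adjusted p = 0.0069). Cyld, which removes such chains, fell by 0.98 (SE 0.27, limma adjusted p = 0.018). Of 8 necroptosis sensors and regulators, 4 were higher and 2 lower, beside the same shares of all genes. Zbp1, the nucleic acid sensor that binds RIPK3, went from 1.01 ± 0.578 to 104 ± 9.55 CPM and Tlr4, the receptor of lipopolysaccharide, from 25.8 ± 10.995 to 86.7 ± 41.1 CPM, while the mitotic kinase Aurka went from 121 ± 16.7 to 31.5 ± 6.20 CPM (SD, n = 3).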

How the data were processed

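The authors deposited 1 table of log2 CPM values for 13912 genes in 6 libraries. Per the submitters' processing notes, HISAT, HTSeq and limma were used with the mouse build mm10, and no tool versions are listed there. The form was that of limma's voom with 0.5 reads added, and solving it gave whole reads, within a tolerance of 0.01 reads, in 100% of values. Library totals ran from 35448588 to 41469090 reads, and no gene had under 61 reads over the 6 libraries. Tumour and cultured libraries were compared in R 4.3.3 using limma 3.58.1 (variance trend, two-sided, Benjamini-Hochberg over all genes), after a check on simulated data. Alternatives were 4 scalings, a pseudocount of 1 CPM, 2 filters, no trend, quality weights and leaving out each library. Floors are 3 reads over a group, and counting intervals are exact at 95% and cover counting error only. Library numbers follow the labels' order and pair nothing. Coordinates and exons came from GENCODE M21 (GRCm38) and windows from RefSeq GRCm38.p6. By the naming rule, values per library were shown for up to 4 called genes of a role and 2 others, and Mcl1 and some genes that did not pass were added after their values were seen. Results for some of the 47 genes are not reported here. Genes and lists were chosen with earlier results of these data known.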

Additional observations from a re-analysis of the deposited data

How the results depend on the processing

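Of the 22 higher genes, 17 passed in every alternative that tested them, and so did 4 of the 8 lower genes (Bid, Ripk4, Hrk and Bcl2l15). The 17 stable higher genes include Pmaip1, Ripk3, Bcl2a1a, Bcl2a1b, Bcl2a1d, Pycard, Casp1 and Casp4, which are in the table only because of their tumour reads. That largely fixed their direction, so their passing in every alternative adds little. Hrk and Bcl2l15, with 1 and 30 reads over the tumour libraries, are in the table only because of their cultured reads. Their passing as lower adds little for the same reason. Of the 17 genes that did not pass in the main comparison, 15 passed in at least 1 alternative. A filter on an overall mean of at least 1 left 14 higher and 5 lower genes and 2246 of all genes higher. It removed 8 higher and 2 lower genes from the test, and Mlkl, still tested, lost its call (limma adjusted p = 0.05003). With libraries scaled to epithelial genes, 4 of the 47 genes, 750 of all genes and 2 companion genes were lower, and 5513 of all genes were lower under quantile normalization. Leaving out 1 library gave 19 to 25 higher and 5 to 8 lower genes of the 47, with 5 lower without any 1 tumour library. Over all genes it gave 3301 to 4625 higher and 1520 to 3301 lower, with 1558 lower without tumour library 1 and 1520 without tumour library 3. For the companion genes it gave 24 to 29 higher and 3 to 11 lower. The cause was not tested.

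Changes that took the other sign were, with each library centred on its median, Bbc3 at -0.10, Bcl2l2 at -0.036, Casp2 at -0.16 and Xiap at -0.019. Under quantile normalization they were Bad at -0.027, Bbc3 at -0.57, Bcl2l12 at -0.82 (limma adjusted p = 0.040), Bcl2l14 at -1.27 and Casp2 at -0.023. Scaled to epithelial genes they were Bax at 0.33, Mlkl at 0.081 and Ripk2 at 0.27. With plain library totals Bbc3 was at -0.029 and Casp2 at -0.089, and with quality weights Bbc3 was at -0.22. Leaving out 1 library gave -0.00086 (without cultured library 1) to 0.76 for Bok, -0.037 (without cultured library 1) to 0.18 for Casp2 and -0.40 (without cultured library 3) to 0.46 for Bbc3. The cause was not tested. No paired analysis was possible because the labels give the groups no shared replicate numbers.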
